A study of Homo sapiens with 2 samples.

Results

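The cytosolic ribosome is built from ribosomal RNA and a set of proteins, each encoded by its own gene. These genes were taken by symbol: names beginning RPL, RPS or RPLP followed by a number, with the suffixes A, L, X or L1 allowed, and RPSA. Kinases of the RPS6K family and pseudogenes were excluded, and a symbol with several rows would have been dropped, which removed none. The rule found 84 genes among 18083 symbols with 1 row each. Of these, 77 were core genes, 31 of the small subunit and 46 of the large subunit. The other 7 were paralogs, genes with a related sequence that carry the suffix L or L1. FAU, which encodes a ribosomal protein fused to a ubiquitin-like protein, falls outside the symbol rule and is given with the related genes at the end.

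RNA came from U2OS, an established human osteosarcoma cell line, in asynchronous growth with 0.3 µM aphidicolin, an inhibitor of replicative DNA polymerases, for 18 h. Polyadenylated RNA was selected, primed with random hexamers and sequenced in 2 libraries, replicate 1 and replicate 2, of this 1 group. Whether they were grown as separate cultures is not stated in the labels, and their spread may therefore be technical only. Every value below is a level in treated cells, and none is an effect of aphidicolin, since untreated cells were not analysed here.

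In eukaryotes the small subunit reads the mRNA and the large subunit joins amino acids. The proteins of both are made in the cytoplasm, imported into the nucleolus and assembled there on ribosomal RNA in near equal numbers of molecules, with the acidic stalk proteins as an exception. Many have a bacterial counterpart and others have none. Their mRNAs are known for beginning with a C followed by an unbroken run of pyrimidines, the 5′ terminal oligopyrimidine tract, through which LARP1 and the mTOR pathway control their translation. Their short, abundant mRNAs have also given rise to many processed pseudogenes, copies of the mRNA inserted elsewhere in the genome.

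The start of the transcript holds a feature that many of these genes share and that the symbol rule did not use. In RefSeq (GRCh38.p14), 62 of the 77 core genes and 5 of the 7 paralogs had a promoter entry. A C at the annotated start followed by at least 4 further C or T bases, read on the strand of the transcript, was found at a start of 46 of these 62 core genes (74.2%). The same run was at a start of 1404 of all 27305 genes of that table (5.14%), and of 988 of its 15843 protein-coding genes (6.24%). Of the 5 paralogs, 1 had it, RPL22L1. Allowing the run to begin within 5 bases of the start gave 53 core genes (85.5%), against 25.2% of all genes and 28.0% of protein-coding genes. The sequences below show 10 bases before the annotated start and the first 20 bases of the transcript, with the run in capitals, for genes that the results turn on.
RPS12 (chr6:132814559-132814588, plus strand): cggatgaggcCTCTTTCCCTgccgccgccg
RPLP0 (chr12:120201092-120201121, minus strand): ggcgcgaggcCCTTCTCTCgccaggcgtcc
RPLP1 (chr15:69452808-69452837, plus strand): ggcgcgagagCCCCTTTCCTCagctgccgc
RPS24 (chr10:78033853-78033882, plus strand): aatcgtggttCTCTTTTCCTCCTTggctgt
RPS10 (chr6:34426050-34426079, minus strand): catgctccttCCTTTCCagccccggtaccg
RPL36A (chrX:101391001-101391030, plus strand): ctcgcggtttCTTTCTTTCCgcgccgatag
RPL39 (chrX:119791611-119791640, minus strand): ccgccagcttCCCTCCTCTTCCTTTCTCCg
RPS27 (chr1:153990752-153990781, plus strand): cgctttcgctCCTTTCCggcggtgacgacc
RPL22 (chr1:6199576-6199605, minus strand): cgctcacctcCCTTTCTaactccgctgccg
RPL22L1 (chr3:170870176-170870205, minus strand): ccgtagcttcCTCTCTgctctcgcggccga
RPS27L (chr15:63157458-63157487, minus strand): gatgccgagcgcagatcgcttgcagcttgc
RPL10L (chr14:46651762-46651791, minus strand): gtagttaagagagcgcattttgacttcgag
RPS4X (chrX:72277229-72277258, minus strand): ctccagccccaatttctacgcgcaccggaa
The run was present at the starts of RPS12, among the highest genes, and of RPS10, the lowest core gene. It was absent at this position from RPS4X, another of the highest, so genes with and without it at the annotated start were found among the highest. The match is to letters at an annotated start only.

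The values are RPKM, reads divided by exonic length and library total. Whole reads could be recovered from them (as described under processing), giving 13227805 reads in replicate 1 and 13020149 in replicate 2. The 5 mesenchymal markers checked were all at 1 RPKM or more in both libraries, led by SPARC, VIM and COL1A1. None of the 3 endothelial markers in the table and 1 of 4 haematopoietic markers, CD3D, reached that level, whereas 3 of 5 epithelial markers did (KRT18, KRT8 and EPCAM). Of the 3 neuronal markers, SNAP25 and SYP did.

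Of the 84 genes, 83 were at 1 RPKM or more in both libraries, against 66.7% of the 17912 entries of the table (symbols that shared a row of values counted once). At 100 RPKM or more, 34 of the 84 genes remained, all of them core genes, against 1.38% of all entries. The median core gene stood at 83.8 RPKM in the first library and at 84.8 RPKM in the other, and the median of all entries at 3.55 and 3.52 RPKM. Core genes as a class were therefore among the high genes of these cells, and the 77 mitochondrial ribosomal protein genes (symbols MRPL and MRPS), which build the separate ribosome of the mitochondrion, had medians of 17.3 and 17.6 RPKM. The 84 genes together took 400401 reads in replicate 1, 3.03% of the library, and 390868 reads in replicate 2, 3.002%. Core genes of the large subunit held 1.84% and 1.83% of the reads, those of the small subunit 1.14% and 1.13%, and the 7 paralogs 0.0387% and 0.0386%.

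**Figure D1:**
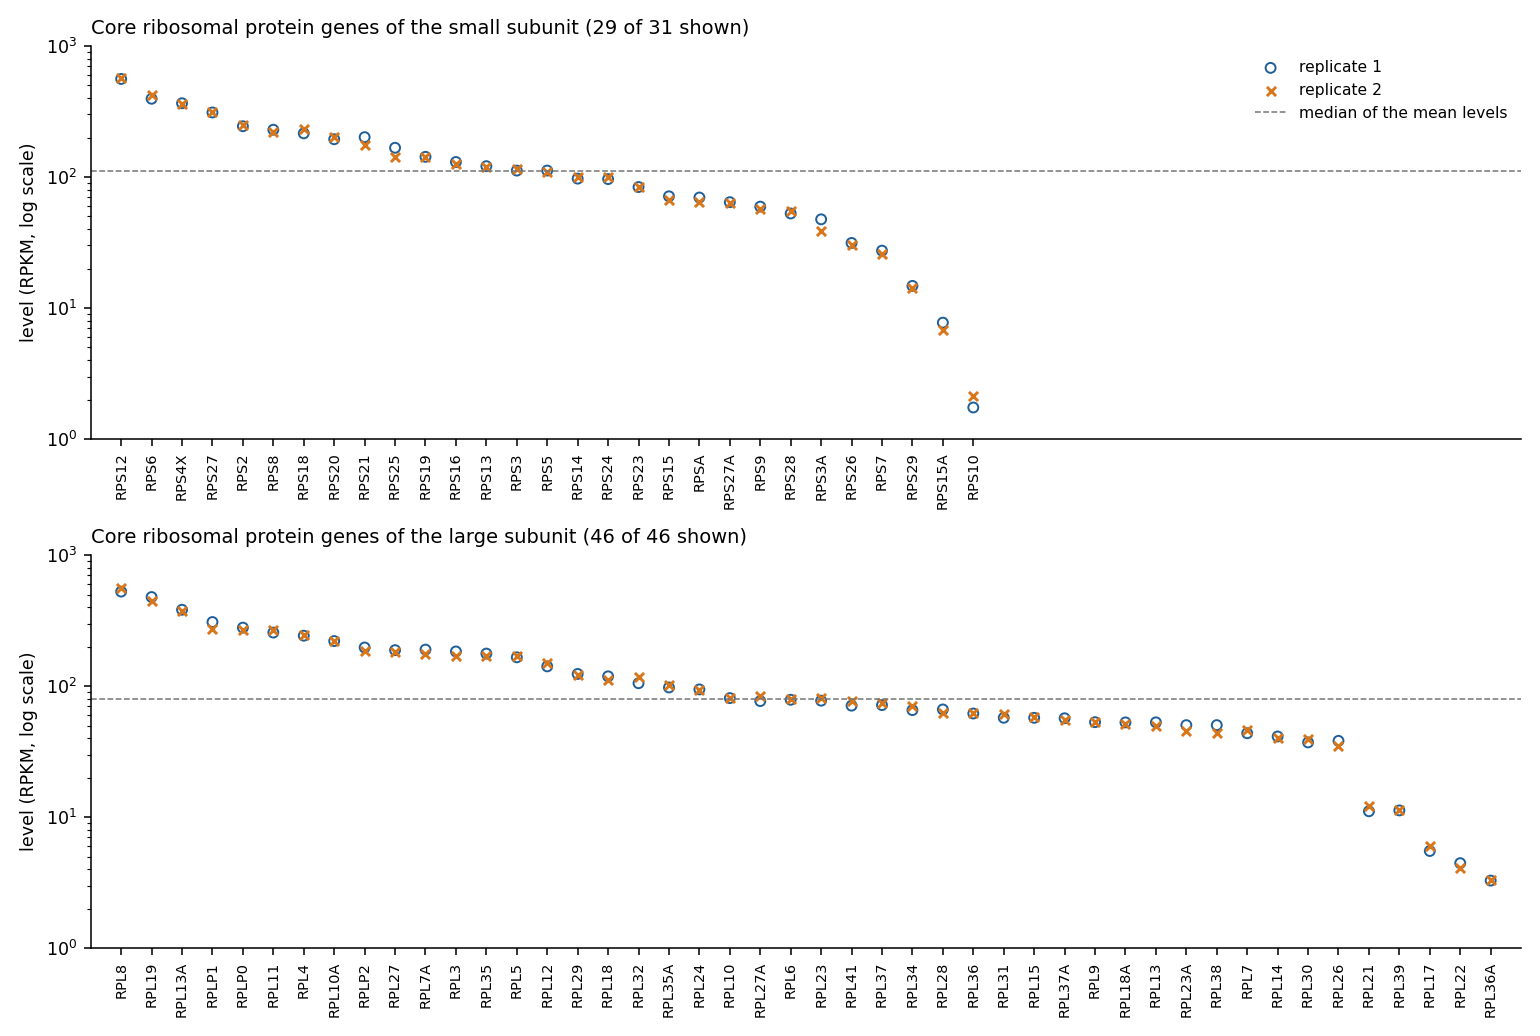
RPKM (log scale) of core genes of the small and the large subunit, ordered by mean level; circles are replicate 1, crosses replicate 2 and the dashed line the median of the mean levels of all core genes of that subunit. In both subunits the levels decline gradually from over 500 RPKM and then drop steeply among the last genes, ending at RPS10 (1.74 and 2.14 RPKM) and RPL36A (3.28 and 3.31 RPKM).

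Although their proteins are needed in near equal numbers, core genes did not have equal RPKM. The quartiles of their mean levels were 52.3 and 186 RPKM, and the highest and lowest differed 291-fold. The order was almost the same in both libraries (Spearman's rho across the 77 genes 0.998, a description across genes that share their libraries).

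RPS12, a protein of the head of the small subunit, was the highest at 560.1 and 568 RPKM. RPL8, which lies close to the peptidyl transferase centre, followed at 527 and 564 RPKM, a range that overlaps that of RPS12. RPL19, which takes part in a bridge between the subunits, had 479 and 450.1 RPKM. It lay below RPL8 without overlap.

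RPS6, the substrate of the S6 kinases, had 395 and 419 RPKM and stood below RPL19 without overlap. RPL13A, also known for a role in interferon-induced silencing of translation, had 383 and 375 RPKM. RPS4X, whose gene lies on the X chromosome, had 365 and 359 RPKM. These 3 genes kept their order without overlap. RPS27, a zinc-binding protein, came next at 311 and 313 RPKM. RPLP1 and RPLP0, both of the stalk, were also among the 10 highest with 309 and 273 RPKM, and 279.6 and 267 RPKM. The stalk genes overlapped each other, since replicate 2 of RPLP1 lay within the range of RPLP0.

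At the other end, RPS10, a small-subunit protein near the mRNA entry and a gene mutated in Diamond-Blackfan anaemia, had 1.74 and 2.14 RPKM from 53 and 64 reads. RPL36A had 3.28 and 3.31 RPKM from 172 and 171 reads. RPL22, an RNA-binding protein of the large subunit, had 4.46 and 4.12 RPKM. All 3 lay apart from one another in both libraries. RPL17, which lines the exit tunnel for the growing chain, had 5.52 and 6.04 RPKM. RPS15A had 7.73 and 6.80 RPKM. The ranges of RPL22, RPL17 and RPS15A did not overlap.

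RPL21, at 11.1 and 12.1 RPKM, and RPL39, the small tunnel protein at 11.3 and 11.4 RPKM, overlapped. RPS29, a small zinc-binding protein, had 14.8 and 14.3 RPKM. RPS7, one of the ribosomal proteins that can bind MDM2, was also among the 10 lowest with 27.4 and 25.9 RPKM.

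Several of the lowest core genes shared sequence with an overlapping gene. The representative transcript of each gene was cut into all words of 50 bases, and each word was looked up in the transcripts of every other gene of GENCODE release 29, pseudogenes included. For RPL17, 90.3% of the words also occurred in an overlapping gene at the same locus, the read-through gene RPL17-C18orf32. The share was 75.1% for RPS10 (RPS10-NUDT3) and 74.7% for RPL36A (RPL36A-HNRNPH2). It was 50.6% for RPL26 and 35.7% for RPS15A, both with overlapping genes known only by clone names. RPL18 had 22.6% and RPL22 had 9.02%. A read from such a word fits both genes, and how the authors counted reads that fit several genes is not given in the sources used here.

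Above a share of 30%, a limit chosen after the values were seen, stood 6 core genes with a median of 5.17 RPKM, from 1.94 to 36.6 RPKM. The other 71 had a median of 98.9 RPKM, from 4.29 to 564 RPKM. These sets overlap, because RPL22, RPL21, RPL39, RPS29 and RPS7 were low with little or no sharing at the same locus. RPL26 was higher with much of it. The values of RPS10, RPL36A, RPL17, RPS15A and RPL26 are therefore uncertain as levels of those genes.

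Words were also found in genes elsewhere in the genome, which include processed pseudogenes. Among the low genes with little sharing at the same locus, the share found elsewhere was 60.2% for RPS7 and 57.4% for RPL21. It was 36.6% for RPL39, 29.1% for RPS29 and 14.7% for RPL22. Genes with much sharing at the same locus also had words elsewhere. Their shares were 75.5% for RPS10, 73.5% for RPL17, 71.6% for RPL36A, 41.6% for RPL26 and 30.5% for RPS15A. Across the 77 core genes, Spearman's rho between RPKM and the share of words found elsewhere was -0.24, and between RPKM and the number of pseudogenes named after the gene -0.30. With reads divided by the coding length in place of the exonic length and scaled by the library total as before (here called the coding-length level), these were -0.53 and -0.41. With reads scaled by the library total alone, they were -0.32 and -0.28. Words cover the whole representative transcript, while the coding-length level divides by coding bases only. Long non-coding sequence can enter both, so part of the relation between words and the coding-length level may be built in. The 15 core genes with under 40% of their words to themselves had a median coding-length level of 253. Those with 40 to 70% (18 genes) had 611, those with 70 to 90% (24 genes) had 813 and those with 90 to 100% (20 genes) had 1096. In RPKM the same 4 classes had medians of 45.1, 108, 112 and 99.3, so there the step was between the first class and the rest. RPS27 went against the pattern, with 33.5% of its words to itself and 311 and 313 RPKM. RPL22 went against it in the other direction, with 83.9% of its words to itself. What part shared words have in these levels was not tested.

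**Figure D2:**
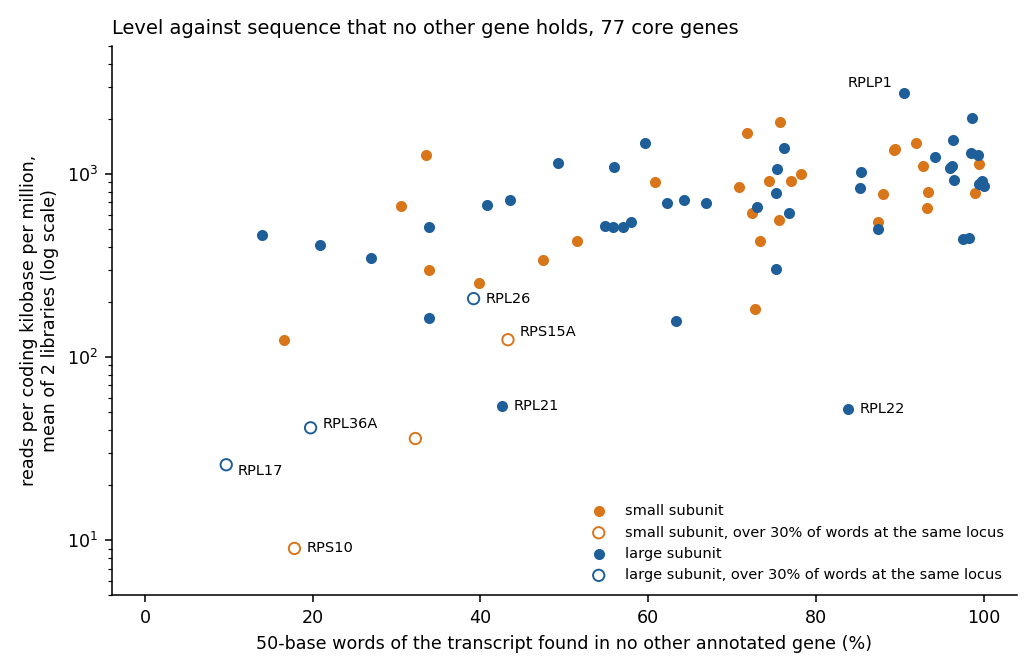
Coding-length level (reads per coding kilobase, scaled by the library total, mean of both libraries, log scale) of the 77 core genes against the share of their 50-base words found in no other annotated gene. Open circles are the 6 genes with over 30% of their words in another gene at the same locus, among them RPS10 (75.1%) and RPL17 (90.3%); RPL22 stands apart with 83.9% of its words to itself and a low level.

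In the table, 10 pseudogenes named after these genes had rows of their own. RPL13AP20 was the highest with 19.9 and 22.2 RPKM from 160 and 176 reads, and RPLP0P2 followed with 6.30 and 6.90 RPKM. Their parents RPL13A and RPLP0 were far higher.

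Levels between genes also turned on the length by which reads were divided. The exonic length implied by the deposited values was close to the union of all annotated exons of the gene. It was between 1.61 and 58.6 times the coding length of the core genes, with a median of 6.11. RPS12 had the smallest ratio, with 639 exonic and 396 coding bases. RPS29 had the largest, with 9845 exonic and 168 coding bases. Across the 77 core genes, Spearman's rho between RPKM and this ratio was -0.59, and between the coding-length level and this ratio 0.0077. Since RPKM divides by the exonic length, part of the first relation is built in. The coding-length level and the ratio both divide by the coding length, so the second relation has a built-in part too. With reads scaled by the library total alone, the rho was -0.23.

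By coding-length level, RPLP1 was the first gene of the core set in place of the ninth. RPL37, a zinc-binding protein of the large subunit, moved from rank 45 by RPKM to rank 2, and RPS24 from rank 37 to rank 3. RPS12 moved from rank 1 to rank 27, and RPS29 from rank 69 to rank 31. Dividing by the length of 1 representative transcript instead put RPL37 at rank 69 and RPS24 at rank 2. On that scale RPLP1 was at rank 9, RPS12 at rank 23 and RPS29 at rank 33. RPL4, a protein of the exit tunnel, had the most reads of all core genes, 18005 and 17844, and was at rank 13 by RPKM. RPS10 was the last on each of the 3 scales (RPKM, coding-length level and CPM, the reads scaled by the library total alone). RPL36A, RPL22 and RPL17 lay between ranks 73 and 76 on all 3.

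**Figure D3:**
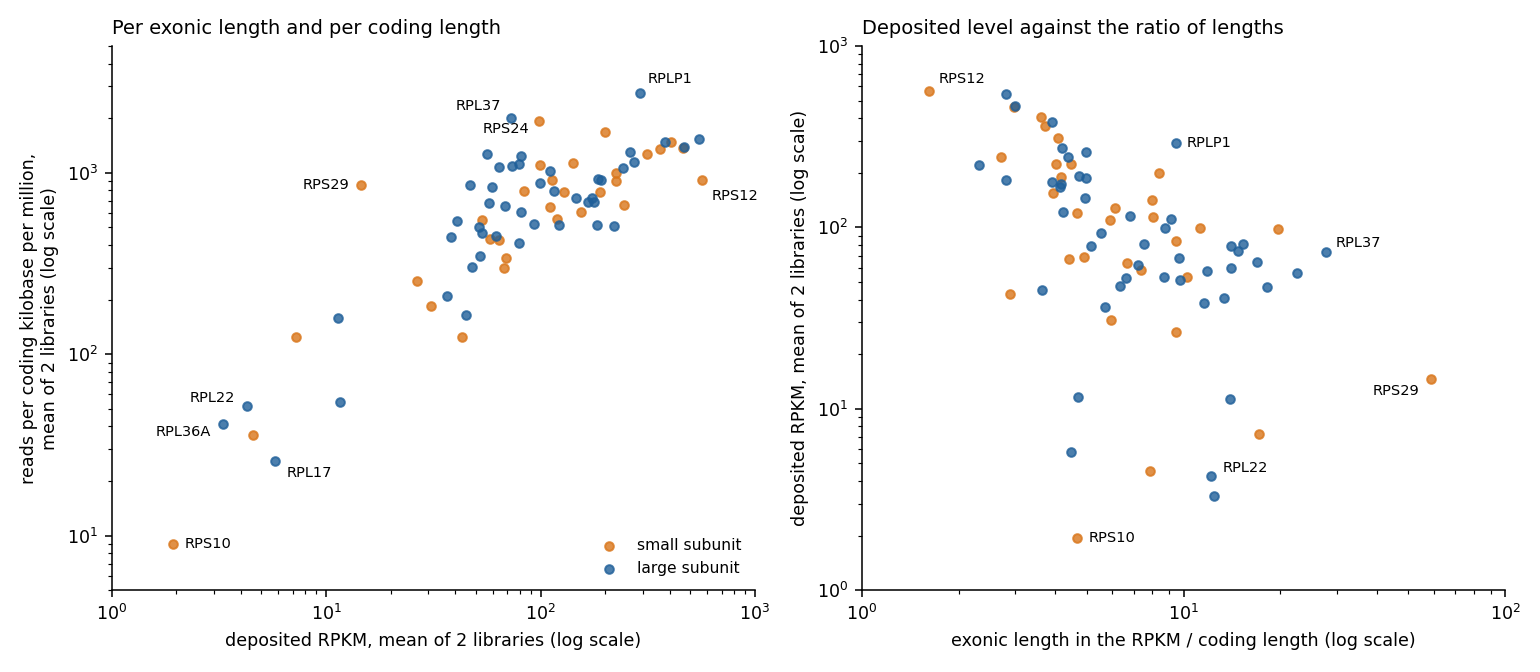
Left, coding-length level against deposited RPKM for the 77 core genes (means of both libraries, log scales); right, deposited RPKM against the ratio of exonic to coding length. RPL37, RPS24 and RPS29 lie far above their RPKM rank on the coding scale, and RPS12, with the smallest ratio (1.61), lies below it.

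The small subunit had the higher median level. Its 31 core genes had median RPKM of 112 and 109 in replicates 1 and 2, and the 46 of the large subunit 77.2 and 80.4. The difference of large minus small, in medians of log2 RPKM, was -0.54 in replicate 1 and -0.43 in replicate 2 (mean -0.48 ± 0.07 SD, n = 2 libraries). Within each subunit, genes ranged far wider than this, from 1.94 to 564 RPKM in the small and from 3.30 to 545 RPKM in the large subunit. The sign depended on the scale: in CPM the large subunit was higher by 0.08 on the log2 scale (0.09 and 0.07 in the libraries). In coding-length level the difference was -0.14 ± 0.07 (SD, n = 2). The direction thus did not hold on every scale.

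The 33 core genes whose proteins have a bacterial counterpart had medians of 112 and 115 RPKM. The 42 whose proteins have no bacterial counterpart had 66.0 and 67.3 RPKM. The difference was 0.76 in replicate 1 and 0.78 in replicate 2 on the log2 scale (mean 0.77 ± 0.01 SD, n = 2). It kept its sign on other scales but not its size, with 0.55 in CPM and 0.18 in coding-length level. Proteins with a bacterial counterpart include RPL8, RPL13A and RPLP0 among the 10 highest, and RPS12, RPL19, RPS6, RPS4X and RPS27 are of the other kind. The stalk proteins RPLP1 and RPLP2 were placed in neither set.

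The stalk of the large subunit, which recruits the GTPases of translation, holds more copies of RPLP1 and RPLP2 than of RPLP0. RPLP2 had 197 and 187 RPKM, below RPLP1 and RPLP0 in both libraries. By coding-length level, RPLP1 stood at 2766, RPLP0 at 1146 and RPLP2 at 911 (means of both libraries). RPLP1 was above RPLP0 and RPLP2 was below it on that scale. In mean CPM the order of RPLP1 and RPLP0 reversed, at 946 and 1090. It did so per representative transcript length too, at 790 and 895. RPLP2 was the lowest of these stalk genes on every scale, with a mean CPM of 314.

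RPL5 and RPL11 bind the smallest RNA of the large subunit and, as free proteins, MDM2. RPL11 had 256 and 267 RPKM. RPL5 had 166 and 168 RPKM, below RPL11 without overlap. RPS27A, which is made as a fusion with ubiquitin, had 64.2 and 63.7 RPKM. RPSA, a small-subunit protein also known as a laminin receptor precursor, had 69.7 and 64.9 RPKM and 74 pseudogenes named after it. Of the words of its transcript, 66.1% were found elsewhere.

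The paralogs were lower than core genes as a set, with medians of 15.9 and 15.8 RPKM. RPL22L1 had 39.3 and 37.3 RPKM and RPL39L 25.03 and 25.3 RPKM. RPL10L followed at 18.6 and 22.4, RPL7L1 at 15.9 and 15.8, and RPL26L1 at 15.6 and 15.2 RPKM. RPS27L had 14.1 and 14.1 RPKM, which places it just under RPL26L1. RPL3L had 0.055 and 0.14 RPKM from 2 and 5 reads and was the only gene of the 84 under 1 RPKM. RPL3L is known for its expression in heart and skeletal muscle, and RPL10L and RPL39L for theirs in testis.

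RPL22L1 was the paralog furthest above its core gene. Its RPKM was 8.81 times that of RPL22 in replicate 1 and 9.07 times in replicate 2, log2 ratios of 3.14 and 3.18 with 95% exact intervals of 2.95 to 3.34 and 2.98 to 3.39. These intervals cover counting error only. In CPM the ratios were 3.87 and 3.99, from 1065 and 997 reads of RPL22L1 and 275 and 250 of RPL22. RPL22L1 was therefore higher than RPL22 on every scale computed. The RPL22 protein is known to restrain the mRNA of RPL22L1. The coding sequences of the pair were 65.4% identical, and 0.701% of the words of RPL22L1 occurred in another gene.

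RPL39L was the other paralog above its core gene in RPKM, at 2.22 times the RPKM of RPL39 in both libraries. In CPM the ratio was 1.08 in both, with log2 intervals of -0.12 to 0.33 in each, so the reads of the pair, 342 and 340 against 317 and 316, did not differ beyond counting error. The exonic lengths by which these reads were divided were 1033 bases for RPL39L and 2128 for RPL39. Divided by the length of 1 representative transcript, RPL39L was below RPL39, at 0.572 and 0.571 times its level, with log2 intervals of -1.03 to -0.58 in both libraries. The direction for this pair thus depended on the scale. These genes are close relatives: their spliced coding sequences, read from GENCODE release 29 transcripts (GRCh38), differ at 8 of 156 positions, shown in capitals.
RPL39 (gene at chrX:119786504-119791643, minus strand): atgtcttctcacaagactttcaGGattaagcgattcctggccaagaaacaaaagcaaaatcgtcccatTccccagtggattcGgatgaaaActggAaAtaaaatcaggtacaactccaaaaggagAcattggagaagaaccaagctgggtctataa
RPL39L (gene at chr3:187120948-187180908, minus strand): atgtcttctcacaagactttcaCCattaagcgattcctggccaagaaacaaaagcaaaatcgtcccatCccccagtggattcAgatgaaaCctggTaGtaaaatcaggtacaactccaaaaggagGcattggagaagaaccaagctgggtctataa
Over the whole representative transcript, 2.55% of the 50-base words of RPL39L occurred in another gene, against 36.6% for RPL39. What part this has in their ratio was not tested.

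RPS27L showed the opposite: 0.045 times the RPKM of RPS27 in both libraries, and 0.389 and 0.385 times its CPM. Its exonic length was 8825 bases against 1028 for RPS27, while both have 252 coding bases without the stop codon. RPS27L was below RPS27 on each scale, and the size of the gap depended on the scale. The coding sequences differ at 56 of 255 positions with the stop codon included, again in capitals, which are spread over their whole length.
RPS27 (gene at chr1:153990755-153992155, plus strand): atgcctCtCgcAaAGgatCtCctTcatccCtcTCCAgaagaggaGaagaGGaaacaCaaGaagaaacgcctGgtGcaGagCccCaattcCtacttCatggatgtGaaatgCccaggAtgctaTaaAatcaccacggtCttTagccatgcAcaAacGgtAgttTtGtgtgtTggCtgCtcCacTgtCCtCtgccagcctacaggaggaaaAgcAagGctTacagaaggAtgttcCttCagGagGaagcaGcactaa
RPS27L (gene at chr15:63125872-63158021, minus strand): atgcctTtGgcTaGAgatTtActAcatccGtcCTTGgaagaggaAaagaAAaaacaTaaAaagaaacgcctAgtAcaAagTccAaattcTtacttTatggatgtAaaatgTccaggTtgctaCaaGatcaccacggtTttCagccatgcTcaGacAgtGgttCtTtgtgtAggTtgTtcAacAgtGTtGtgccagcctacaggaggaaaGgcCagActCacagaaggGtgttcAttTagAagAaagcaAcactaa
RPS27L is known as a gene that p53 activates, and its start, printed above, lacks the pyrimidine run that RPS27 has.

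RPL10L, a gene of 1 exon whose core gene RPL10 has 7 in its representative transcript, had 0.23 and 0.277 times the RPKM of RPL10. In CPM it had 0.0367 and 0.0443 times. RPL10L had 190 and 225 reads, and 0.131% of its words occurred in another gene although the coding sequences were 89.3% identical. RPL26L1 had 0.408 and 0.433 times the RPKM of RPL26 and 0.192 and 0.204 times its CPM. More than the other paralogs, RPL26L1 shared its words with genes elsewhere (52.9%).

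RPL7L1, a distant relative of RPL7 with 54.2% identical coding bases, had 0.363 and 0.341 times the RPKM of RPL7. In CPM the genes were level, at 1.05 and 0.987 times, with log2 intervals of -0.03 to 0.17 and -0.12 to 0.08. The exonic lengths were 7811 and 2700 bases. Of the words of RPL7, 66.2% were found in genes elsewhere, against 20.4% for RPL7L1. The intervals do not cover this, and its part in the ratio was not tested. RPL3L had 0.000298 and 0.000814 times the RPKM of RPL3. The intervals of these log2 ratios, -14.76 to -9.86 and -11.89 to -9.04, are wide because RPL3L had so few reads.

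**Figure D4:**
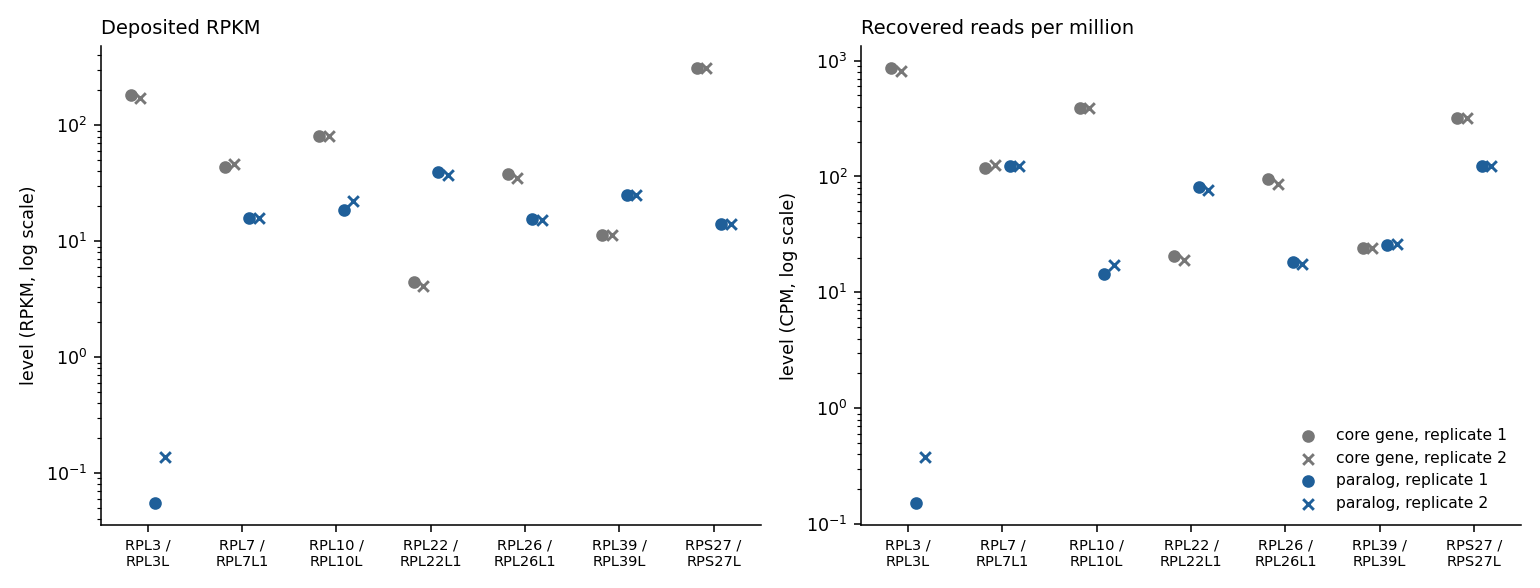
Level of each paralog (blue) and its core gene (grey) in replicate 1 (circles) and replicate 2 (crosses), left in deposited RPKM and right in CPM, log scales. RPL22L1 lies above RPL22 on both sides, while RPL39L and RPL7L1 lie level with their core genes in CPM (1.08 times for RPL39L) and RPL3L lies far below RPL3.

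Between the 2 libraries, 15 of the 84 genes differed (exact binomial test on the recovered reads, two-sided, Benjamini-Hochberg adjusted p under 0.05 over 17912 entries). The background was 0.988% of all entries, but these genes have many reads and the test sees smaller differences there. Among entries with at least 1000 reads in both libraries together, 2.44% differed, against 15 of 73 ribosomal protein genes (20.5%). With at least 5000 reads it was 10.3%, against 13 of 55 (23.6%). The test compares these 2 libraries, which are of the same condition, and it allows for counting error only.

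The differences were small and went both ways. RPL8, RPS6, RPS18, RPL32 and RPL27A were the 5 genes higher in replicate 2. Replicate 1 had 10 higher genes, among them RPL19, RPLP1, RPS21, RPL7A, RPL3, RPS25, RPL28, RPL38 and RPS3A. RPLP1 had the lowest adjusted p, 2.0e-16, in the exact binomial test, and its log2 ratio (replicate 2 over 1) was -0.17. By the same exact test RPL8 had 0.11 (adjusted p = 1.2e-07). RPS3A, which had 83.4% of its words elsewhere in the genome, had the largest ratio of the 15 with -0.28 (exact test, adjusted p = 0.00022), from 47.5 and 38.8 RPKM. Of the genes called, RPS3A was the only one to pass 1.2-fold. RPL3L, RPS10 and RPL10L had larger ratios or similar ones from few reads and did not pass the exact test (adjusted p of 0.88, 0.88 and 0.56).

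**Figure D5:**
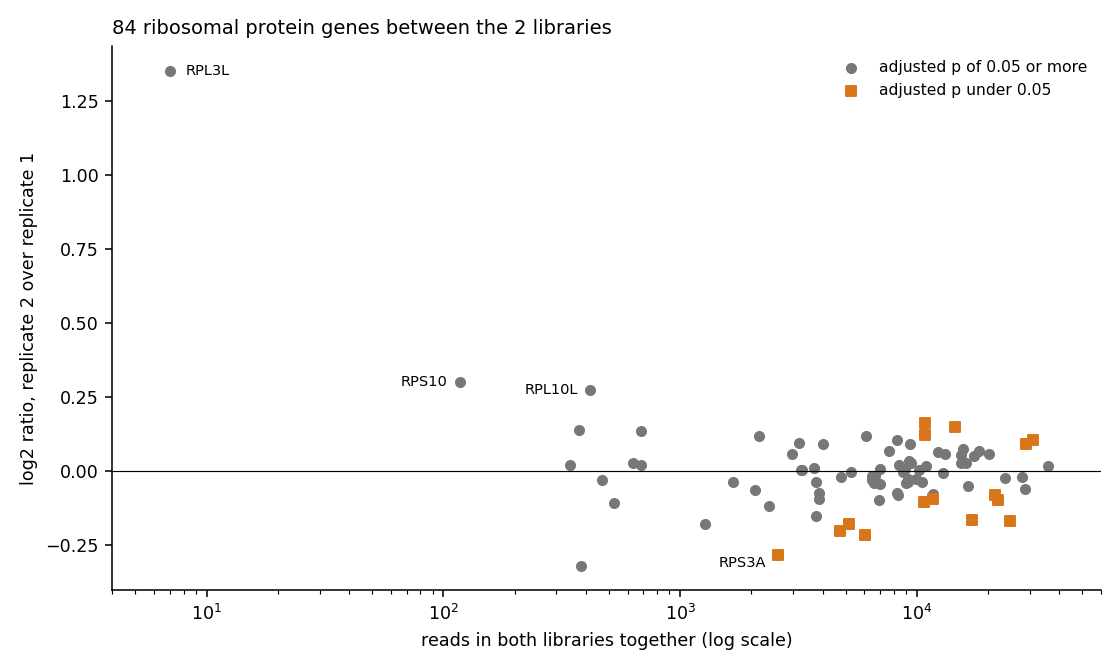
Log2 ratio of replicate 2 over replicate 1 for the 84 genes against their reads in both libraries (log scale); orange squares have an adjusted p under 0.05 in the exact binomial test. The 15 genes that differed lie between -0.28 (RPS3A) and 0.16 (RPL32), while RPL3L with 2 and 5 reads lies far above 0.

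Ribosomal components whose symbols fall outside the rule had levels within the range of the core genes. RPL36AL, the autosomal relative of RPL36A, had 233 and 239 RPKM, against 3.28 and 3.31 for RPL36A. The size of this gap depended on the scale, with exonic lengths of 676 bases for RPL36AL and 3964 for RPL36A. Mean CPM was 159 for RPL36AL and 13.1 for RPL36A, and the mean per representative transcript length 214 and 30.5. RPL36AL had 85.7% of its words to itself and RPL36A 19.7%. RACK1, a scaffold protein of the small subunit, had 212 RPKM in both libraries. FAU had 86.5 and 76.6 RPKM.

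The genes that build the ribosome and their regulators had lower medians than the core genes. Of 126 such genes in the table, the ribosomal components outside the symbol rule included, 124 were at 1 RPKM or more in both libraries, against the 66.7% of all entries given above. The 10 genes of nucleolar RNA-protein particles had medians of 42.3 and 41.8 RPKM, led by NPM1, NCL and NOP10, which shape the nucleolus or modify ribosomal RNA. The large-subunit assembly list had 38 of 39 genes at that level and medians of 18.9 and 18.5 RPKM, led by BOP1, RSL1D1 and EIF6. NOP2, an RNA methyltransferase, was below it at 0.82 and 0.98 RPKM.

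The small-subunit assembly list had 42 of 43 genes at that level and medians of 12.3 and 11.8 RPKM, led by TSR3, UTP3 and WDR43. PWP2, a protein of the early small-subunit particle, was below it with 3 and 16 reads. Chaperones and regulators of ribosomal proteins, 19 genes, were all at that level with medians of 16.0 and 15.7 RPKM, led by BTF3, NAP1L1 and LARP1. LARP1, which binds the pyrimidine run described above, had 36.7 and 40.04 RPKM. The 11 genes of RNA polymerase I and its factors, which transcribe ribosomal RNA, were all at that level with medians of 11.2 RPKM in both, led by POLR1E, UBTF and TAF1D.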

How the data were processed

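RNA-seq of 2 libraries of 1 group of U2OS cells was used. The deposited values are RPKM, per the file headers, in 1 table. Reads had been trimmed, aligned and counted by the authors, whose tools (featureCounts, HISAT2, Trim Galore) and builds (GRCh38.p13, hg38) are named in the submitters' processing notes. For versions, annotation, strand and reads that fit several genes, nothing is stated in the labels. The deposited table held 18277 rows, and 58 symbols with several rows (194 rows) were left out. The genes and lists were chosen with earlier results of these data known.

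RPKM ratios between the libraries were ratios of whole numbers in 100% of genes (tolerance 2e-13), which gave the reads per gene, the library totals (13227805 and 13020149) and the exonic lengths used. That length was within 10% of the GENCODE release 29 union of exons for 81 of the 84 genes. Levels were also computed by library total alone (CPM), per coding length and per length of 1 representative transcript. Values at 0 were absent from the table, so no pseudocount was needed. With 1 group, no comparison of conditions was possible and genes are not replicates, so differences between gene sets carry no p. Libraries were compared by an exact binomial test (two-sided, scaled by the trimmed mean of M values, Benjamini-Hochberg adjusted over 17912 entries) and the method was tested on simulated data. Intervals of ratios are exact binomial at 95% and cover counting error only. Named genes were the 10 highest and 10 lowest core genes by mean RPKM, all paralogs with their core genes, the stalk, RPL5, RPL11, RPS27A, RPSA, genes that differed between libraries, and of the other lists the 3 highest and those below 1 RPKM. Others, such as RPL37, RPS24, RPL4 and RPL26, were named after their values were seen. Some genes that the rule names are not reported here, although they enter the counts and medians. Alternatives covered the scale, level, gene set, test and each library left out. The words of 50 bases and the read minimum of 5000 were chosen after seeing the data. Python 3.11.15, scipy 1.17.1, pandas 2.3.3 and Biopython 1.88 were used.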

Additional observations from a re-analysis of the deposited data

How the results depend on the processing

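The scale changed the size of most differences between genes and the direction of some. The SD of log2 levels over core genes, 1.75 in RPKM, was 1.66 in CPM, 1.53 per coding length, 1.62 per representative transcript length and 1.67 for log2(RPKM + 1), and 1.75 in either library alone. Large minus small subunit was -0.48 in log2 RPKM. It reversed to 0.079 in CPM, and was -0.14 per coding length, -0.38 per representative transcript, -0.15 without core genes under 100 RPKM, -0.57 with paralogs included and -0.13 by means of log2 levels (-0.54 and -0.43 with a library left out). Core genes with a bacterial counterpart minus those without one gave 0.77 in log2 RPKM. This difference was 0.55 in CPM, 0.18 per coding length and 0.80 per representative transcript. It was 0.15 without core genes under 100 RPKM, 0.65 with paralogs and 0.68 by means. Paralogs above their core gene numbered 2, but 1 per representative transcript, where RPL39L against RPL39 reversed to -0.81; RPL7L1 against RPL7 reversed to 0.026 in CPM, where 3 were above. The rho of level with named pseudogenes, -0.30, was -0.28 in CPM and -0.41 per coding length. The rho with exonic length, -0.38, reversed to 0.19 in CPM and 0.049 per coding length. At 100 RPKM 34 genes were expressed in place of 83. Requiring 1.2-fold left 1 of 15 genes that differed between libraries. Other counts kept within 1.5 times under their alternatives. Apart from the lengths by which the scales divide, the cause was not tested. No paired analysis was possible because there is only 1 group. With 2 libraries no outlying sample could be sought, and RPL3L rests on 7 reads. Sequence shared at the same locus limits RPS10, RPL36A, RPL17, RPS15A and RPL26. RPS10, RPL36A and RPL17 also had most of their words in genes elsewhere, as did others such as RPL21, RPS7 and RPL7.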
